A study of Mus musculus with 9 samples.

Results

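The genes described are the EGF family ligands Hbegf, Areg, Ereg, Btc, Tgfa and Nrg1 and the receptors Egfr, Erbb2 and Erbb3. They were taken from the table by gene symbol and are 9 of its 54532 genes. RNA was sequenced from 9 libraries of mouse cardiosphere-derived cells, which grow out of cultured heart tissue, here of C57BL/6 mice: the labels name the ventricle and the methods the epicardium peeled from it. The 3 groups of 3 libraries were untreated primary cells (pECDC), untreated cells immortalized with human telomerase (hTERT) and taken at passage 30 (iECDC), and cells given the small molecule SB431542, which blocks the kinase of the type I TGF-β receptor (SB431542). The pECDC libraries are titled P0, whereas the methods used primary cells at passage 3, so their passage is not settled here. For the treated libraries the labels name immortalized cells at passage 30 treated for 3 days. The study's methods name a treated epithelial clone derived from primary cells, without saying in which of the study's deposited series it lies. Its discussion describes epithelial clones in treated primary cultures that again expressed Wt1 and Tcf21, with data not shown. Those clones were seen at a later time than the 3 days of the labels. Treated cells are therefore set against both untreated groups, and treatment and origin of the cells cannot be told apart. The methods speak of biological replicates, with a number per condition other than the 3 libraries here, and neither source names separate cultures or animals, so the p-values measure the spread between these libraries, which may in part be technical.

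Ligands of the EGF family are made as membrane-bound precursors, and metalloproteases such as ADAM17 cut them free from the cell surface. HB-EGF, amphiregulin, epiregulin, betacellulin and TGF-α bind EGFR (ERBB1), HB-EGF, epiregulin and betacellulin also bind ERBB4, and neuregulin-1 binds ERBB3 and ERBB4. ERBB2 has no known ligand of its own and signals as a partner of the other receptors, through RAS, MAP kinases and PI3 kinase. In the heart the family is known for neuregulin-1 signalling to cardiomyocytes through ERBB2 and ERBB4, and for HB-EGF in valve formation.

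Total counts ranged from 16568306 to 23951392 per library. iECDC replicate 3 and SB431542 replicate 2 stood apart from the libraries of their groups: the chi-square of gene counts per degree of freedom was 24.9 to 30.8 for the former and 70.3 to 71.5 for the latter against the other libraries of their groups, and 2.7 to 4.61 for all other pairs within groups. Calls of the members and counts over lists that change without these libraries are given both ways. All 9 markers of cardiosphere-derived and mesenchymal cells were tested. Eng lay between 62.4 and 90.2 FPKM (fragments per kilobase of gene, scaled to library depth) and Thy1 between 111 and 148 in all libraries. Eng did not overlap between the untreated groups, at 66.3, 67.4 and 68.1 FPKM in pECDC and 88.6, 90.2 and 80.2 in iECDC libraries. Without SB431542 replicate 2 both were called in treated against pECDC libraries (log2 fold change 0.31 for Eng and -0.10 for Thy1). Ly6a (Sca-1) had 3.93 to 7.11 FPKM in untreated and 35.3, 16.2 and 37 in treated libraries. Of the 9, 2 were higher in treated than in iECDC libraries, Ly6a by 2.25 on the log2 scale (edgeR, adjusted p 0.00262) and Pdgfra by 0.96, and 1 was lower, Vim (-0.64), and without SB431542 replicate 2 the counts were 5 and 1. Between iECDC and pECDC 2 were higher and 2 lower (5 and 3 without iECDC replicate 3), and in treated against pECDC libraries 3 were higher and none lower (6 and 3 without SB431542 replicate 2). Beside these counts, 30% of all genes tested were called in treated against iECDC libraries, and 50.2% without SB431542 replicate 2. Between iECDC and pECDC the share was 16.4%, or 31.7% without iECDC replicate 3. In treated against pECDC libraries it was 34.8%, or 64.1% without SB431542 replicate 2. Most markers of other cells were low. The 6 endothelial markers summed to 0.0283 to 0.165 FPKM, with none of them tested, and the 5 Schwann cell markers to 0.0535 to 0.176 with Sox10 at 0. The 6 blood markers together summed to 7.12 to 10.7 FPKM. Csf1r was the highest of them in every library (3.46 to 7.41 FPKM), with Lyz2 at 0.434 to 3.31 and Cd68 at 0.673 to 2.04. Cd3e and Adgre1 were at 0 in every library. The 6 cardiomyocyte markers summed to 0.327 to 2.31 FPKM. The 11 epicardial and epithelial markers summed to 33.2 to 54.5, mostly from Krt19 (18.2 to 37.9) and Tjp1 (9.97 to 15.6). Among these 11, the epithelial Cdh1 and Epcam stayed at or below 0.0246 FPKM, also in treated libraries. All adjusted p-values are from the quasi-likelihood test of edgeR on counts with Benjamini-Hochberg adjustment over all genes tested, and a gene was called where the adjusted p was under 0.05.

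**Figure D1:**
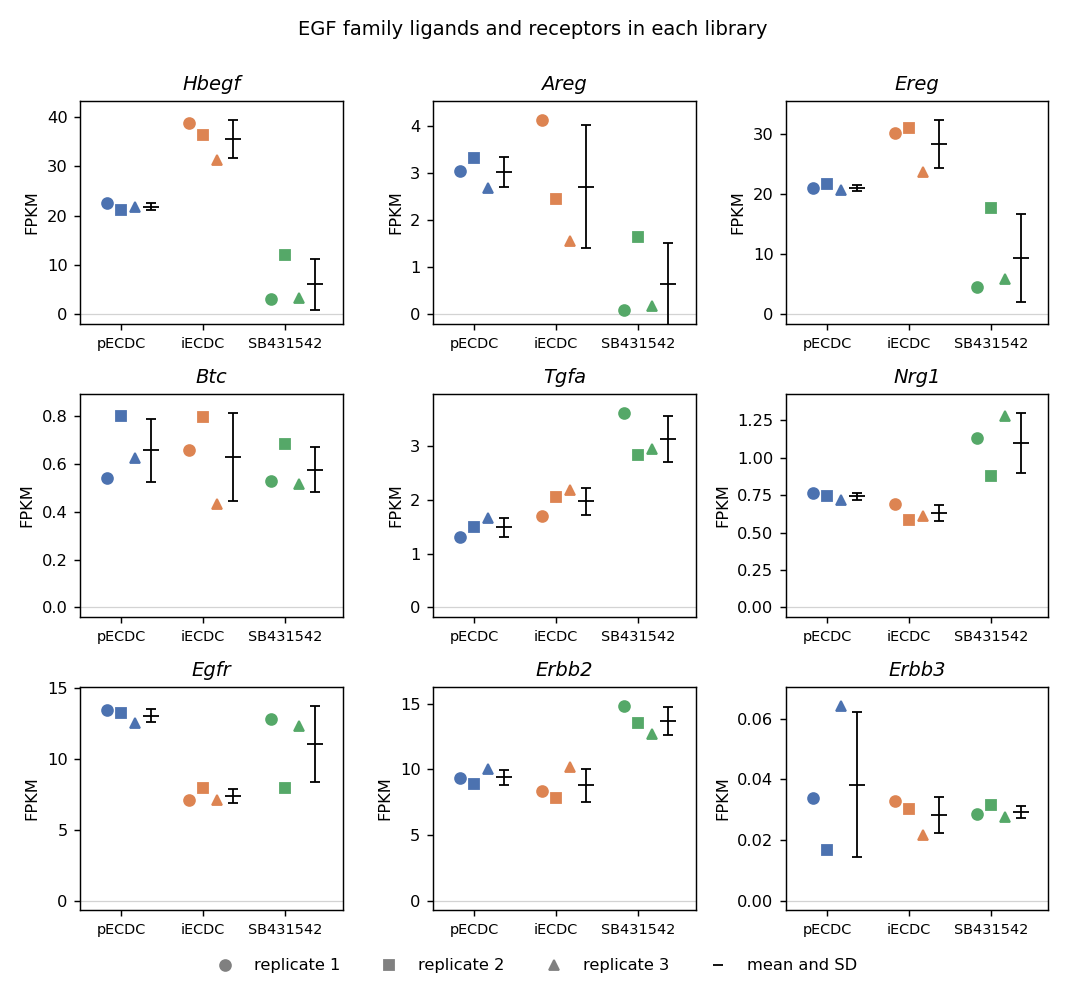
FPKM of the 9 genes in each library, 1 panel a gene with its own linear axis. Points are libraries (circle, replicate 1; square, replicate 2; triangle, replicate 3) and black marks are the mean ± SD of 3 libraries, with the lower end of the Areg bar running below the axis. Hbegf and Ereg lay lowest in the treated libraries and Tgfa and Erbb2 highest there. The square of the treated group lay nearer to iECDC than the other treated libraries for Hbegf, Ereg, Areg and Egfr, and by less for Tgfa and Nrg1.

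On the length-corrected scale of FPKM, Hbegf and Ereg were the ligands with the highest levels in untreated cells. In pECDC libraries Hbegf had 21.9 ± 0.735 FPKM (SD, n = 3) and Ereg 21.1 ± 0.471, and the libraries of both genes overlapped. Areg followed at 3.01 ± 0.316, Tgfa at 1.49 ± 0.175, Nrg1 at 0.742 ± 0.0246 and Btc at 0.656 ± 0.132 FPKM, and of these only Nrg1 and Btc overlapped. In iECDC libraries Hbegf (31.3 to 38.8 FPKM) lay above Ereg (23.7 to 31 FPKM), whereas Areg and Tgfa overlapped, as did Nrg1 and Btc. In each treated library Ereg lay above Hbegf, at 4.53, 17.7 and 5.89 against 3.08, 12 and 3.24 FPKM, an order opposite to that in iECDC libraries. Tgfa, at 3.6, 2.82 and 2.94 FPKM in treated libraries, lay above Hbegf in replicate 1. Among the receptors Egfr lay above Erbb2 in every pECDC library, and Erbb2 lay above Egfr in every treated library and in iECDC replicates 1 and 3. Erbb3, the receptor of neuregulin-1, was close to absent, with 2 to 9 counts and 0.0167 to 0.0641 FPKM in all 9 libraries, and was tested in no comparison.

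Ereg, Areg and Btc lie side by side on chromosome 5. In the coordinates of the table, which are those of GRCm38, Ereg spans chr5:91074622-91093646 and Areg chr5:91139599-91148432 on the plus strand, and Btc spans chr5:91357261-91402994 on the minus strand. Areg starts 46 kb after Ereg ends, and Btc ends 209 kb after Areg. Tgfa lies at chr6:86195223-86275719 (plus strand), Egfr at chr11:16752203-16918158 (plus), Erbb2 at chr11:98412470-98437716 (plus) and Erbb3 at chr10:128567523-128589652 (minus).

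Promoter windows of 250 bases before the RefSeq start (build GRCm38.p6) were at hand for Areg, Btc, Tgfa, Egfr and Erbb2, and those of 4 members are shown: Areg, of the chromosome 5 cluster, and Tgfa, Egfr and Erbb2, which were all called higher in treated than in iECDC libraries. All 4 read on the plus strand, 5′ to 3′, at chr5:91139349-91139598, chr6:86194972-86195221, chr11:16751953-16752202 and chr11:98412234-98412483. Capitals mark every match, on either strand, to 5 motifs: AP-1 (TGANTCA), the CRE core motif (TGACG), TEAD (GGAATG), the E-box (CACGTG) and the GC box (GGGCGG).
Areg: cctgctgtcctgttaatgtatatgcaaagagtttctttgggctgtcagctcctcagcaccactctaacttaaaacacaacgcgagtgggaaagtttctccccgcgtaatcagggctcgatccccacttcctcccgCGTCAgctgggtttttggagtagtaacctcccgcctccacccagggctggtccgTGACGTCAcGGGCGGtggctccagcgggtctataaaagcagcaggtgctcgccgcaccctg
Tgfa: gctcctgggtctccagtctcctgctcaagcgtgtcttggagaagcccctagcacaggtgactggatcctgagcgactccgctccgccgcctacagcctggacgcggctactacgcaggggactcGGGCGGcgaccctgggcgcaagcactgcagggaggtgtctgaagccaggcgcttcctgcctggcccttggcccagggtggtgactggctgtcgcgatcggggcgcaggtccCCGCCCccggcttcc
Egfr: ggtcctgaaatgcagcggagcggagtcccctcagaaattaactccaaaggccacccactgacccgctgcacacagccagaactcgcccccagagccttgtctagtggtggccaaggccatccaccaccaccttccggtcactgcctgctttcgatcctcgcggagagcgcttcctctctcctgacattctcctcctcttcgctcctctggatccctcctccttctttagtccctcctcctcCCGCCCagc
Erbb2: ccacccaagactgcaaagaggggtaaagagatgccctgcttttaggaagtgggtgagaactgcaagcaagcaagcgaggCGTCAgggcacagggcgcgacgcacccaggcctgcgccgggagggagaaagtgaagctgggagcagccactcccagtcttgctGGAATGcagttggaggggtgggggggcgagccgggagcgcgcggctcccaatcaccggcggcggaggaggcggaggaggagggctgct
Counted back from the start site by the first base of the match, Areg held CRE core motifs at -115, -61 and -58, of which the last pair overlap as the palindrome TGACGTCA, and a GC box at -52. Tgfa held GC boxes at -126 and -15, Egfr a GC box at -9, and Erbb2 a CRE core motif at -171 and a TEAD motif at -88. The window of Btc, which is not shown, held a CRE core motif at -113. Of 32851 windows of the same length, 17.8% held a CRE core motif, 32.7% a GC box, 12.6% the TEAD motif, 6.75% the AP-1 motif and 6.02% the E-box. A match is a description of these letters, not a binding site.

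The comparison of iECDC with pECDC shows how the family differed between immortalized cells after long culture and primary cells. Of the 8 members tested, 3 were called: Hbegf and Ereg were higher in iECDC libraries and Egfr was lower. Over all 13752 genes tested, 16.4% were called, 7.21% as higher and 9.21% as lower. Without iECDC replicate 3, 4 members and 31.7% of genes were called, and in a fit of all 9 libraries together 1 member and 4.72% of genes. The libraries of the 2 groups did not overlap in FPKM for 5 of the 8, against 39.9% of all genes tested. The median log2 fold change was 0.16 over the 6 ligands and -0.48 over the 2 tested receptors, against -0.00 over all genes.

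Hbegf encodes heparin-binding EGF-like growth factor, which binds EGFR and ERBB4, and lies at chr18:36504929-36515805 on the minus strand. Its counts were 1318, 1001 and 1205 in pECDC and 1857, 1420 and 1142 in iECDC libraries, which is 22.6, 21.2 and 21.7 FPKM against 38.8, 36.4 and 31.3. All iECDC libraries lay above all pECDC libraries, and replicate 3 was the lowest of them. The log2 fold change was 0.69 ± 0.09 (SE; adjusted p 0.00103), and 0.77 without iECDC replicate 3 (adjusted p 4.34e-08). It was not called in the fit that took the spread from all 9 libraries (adjusted p 0.356).

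Ereg encodes epiregulin, another ligand of EGFR and ERBB4. Its levels were 21, 21.6 and 20.6 FPKM in pECDC libraries and 30.1, 31 and 23.7 FPKM in iECDC libraries. The groups did not overlap, and iECDC replicate 3 again lay lowest in its group. The log2 fold change was 0.41 ± 0.10 (adjusted p 0.0228). Without iECDC replicate 3 it was 0.53 (adjusted p 3.36e-07), but leaving out any other single library ended the call: the adjusted p was 0.0577 without iECDC replicate 1, 0.071 without iECDC replicate 2, and 0.0938, 0.0835 and 0.101 without pECDC replicates 1, 2 and 3.

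Egfr, the receptor shared by 5 of the ligands, was lower in iECDC libraries. Its counts were 3728, 2978 and 3302 in pECDC and 1617, 1472 and 1238 in iECDC libraries, or 13.4, 13.2 and 12.5 against 7.07, 7.91 and 7.11 FPKM. The groups were far apart relative to their spread. The log2 fold change was -0.84 ± 0.07 (adjusted p 8.95e-05), a level 1.79-fold lower, and Egfr was called in all 15 alternatives.

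The other 5 tested members were not called. Tgfa, which encodes TGF-α, had 1.31, 1.49 and 1.66 FPKM in pECDC and 1.69, 2.04 and 2.17 FPKM in iECDC libraries, which did not overlap (log2 fold change 0.38 ± 0.13, adjusted p 0.0832). It was called without iECDC replicate 1 (0.49, adjusted p 0.0423). Nrg1, which encodes neuregulin-1 and lies at chr8:31814551-32884029 on the minus strand, had 0.764, 0.747 and 0.716 FPKM against 0.689, 0.588 and 0.61, again without overlap (-0.25 ± 0.12, adjusted p 0.194). Areg, which encodes amphiregulin, was even in pECDC libraries (3.05, 3.31 and 2.68 FPKM) and spread widely in iECDC libraries (4.12, 2.45 and 1.55 FPKM). Its log2 fold change of -0.13 ± 0.30 (adjusted p 0.8) turned to 0.14 without iECDC replicate 3. Btc, which encodes betacellulin, overlapped between the groups, at 0.541, 0.8 and 0.625 against 0.658, 0.794 and 0.432 FPKM (-0.06 ± 0.25, adjusted p 0.897). It turned to 0.14 without iECDC replicate 3 and to 0.10 without pECDC replicate 2. Erbb2, with 9.34, 8.85 and 9.99 FPKM against 8.33, 7.82 and 10.2, overlapped because of iECDC replicate 3 (-0.11 ± 0.10, adjusted p 0.474), and was called lower without that library (-0.23, adjusted p 0.0138).

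**Figure D2:**
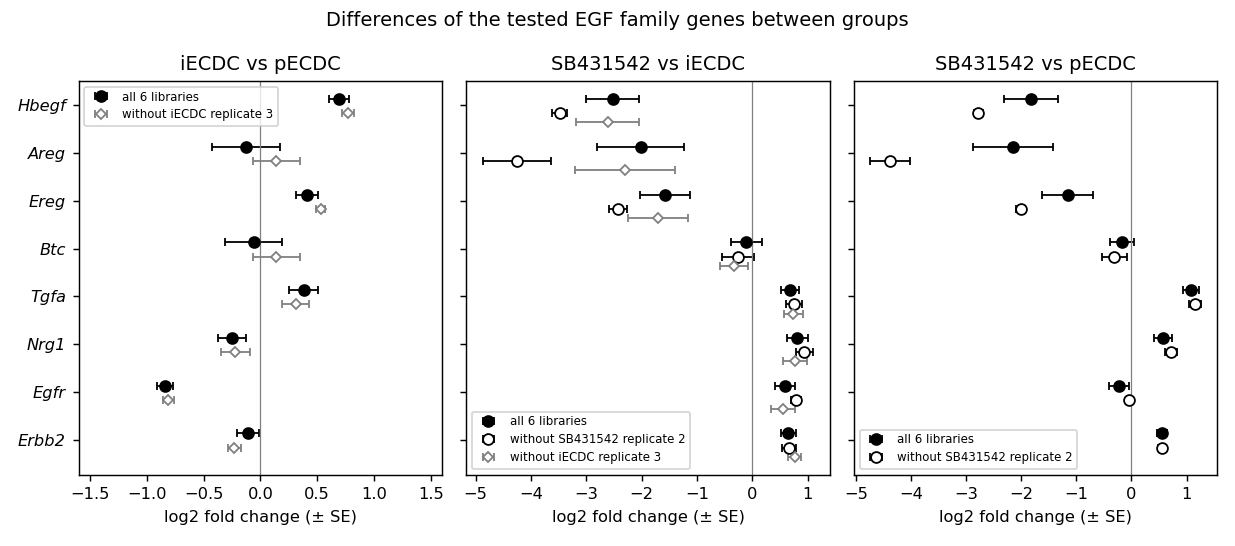
Log2 fold change with its SE (edgeR) of the 8 tested members in 3 comparisons, where a positive value is higher in the group named first and the left panel has an axis of its own. Filled circles use all 6 libraries, open circles leave out SB431542 replicate 2, and grey diamonds leave out iECDC replicate 3. Hbegf, Areg and Ereg lie to the left of 0 in both comparisons with treated cells and Tgfa, Nrg1 and Erbb2 to the right.

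Treated cells were next compared with iECDC, the untreated cells that the labels name for them. Of the 8 members tested, 6 were called: Hbegf and Ereg were lower in treated libraries, and Tgfa, Nrg1, Egfr and Erbb2 were higher. Over all 13559 genes tested, 30% were called, 16% as higher and 14% as lower, and 50.2% without SB431542 replicate 2, when 7 of the 8 members were called. Leaving out iECDC replicate 3 as well, 64.5% of genes and the same number of members were called. With iECDC replicate 3 alone left out, 4 members, 3 higher and 1 lower, and 25.4% of genes were called. The libraries did not overlap in FPKM for 6 of the 8, against 46.5% of all genes. The median log2 fold change was -0.85 over the 6 ligands and 0.62 over the 2 receptors, against 0.00 over all genes. The comparison shares its iECDC libraries with the one above, so their values are not independent.

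Hbegf had 3.08, 12 and 3.24 FPKM in treated libraries, from 128, 598 and 139 counts, against 31.3 to 38.8 FPKM in iECDC. All treated libraries lay below all iECDC libraries, and replicate 2 lay between the other treated libraries and the untreated ones. The log2 fold change was -2.52 ± 0.48 (adjusted p 0.00785), a level 5.74-fold lower, and Hbegf was called in all 16 alternatives. The level was 11.2-fold lower without SB431542 replicate 2 (-3.48 ± 0.14, adjusted p 2.56e-07).

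Ereg had 4.53, 17.7 and 5.89 FPKM in treated libraries, from 328, 1541 and 439 counts, all below the iECDC libraries. Replicate 2 was again the highest of the treated libraries. The log2 fold change was -1.58 ± 0.45 (adjusted p 0.0328), a level 2.99-fold lower, and without SB431542 replicate 2 it was 5.39-fold lower (-2.43 ± 0.16, adjusted p 5.54e-06). The call was lost when any one of the other 5 libraries was left out: the adjusted p was 0.0964, 0.0939 and 0.064 without iECDC replicates 1, 2 and 3, and 0.0819 and 0.0983 without SB431542 replicates 1 and 3.

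Areg, the neighbour of Ereg, had 2, 42 and 4 counts in treated libraries and 101, 49 and 29 in iECDC libraries. In FPKM this was 0.0939, 1.64 and 0.182 against 4.12, 2.45 and 1.55, so treated replicate 2 lay just above the lowest iECDC library while the other treated libraries lay far below. Areg was not called (log2 fold change -2.02 ± 0.79, adjusted p 0.0862). It was called without SB431542 replicate 2, at -4.25 ± 0.62 (adjusted p 0.000507), a fold that rests on 2 and 4 counts in the treated group. DESeq2 on all 6 libraries called it as well (adjusted p 0.0294). Btc, the other gene of the cluster, had 0.53, 0.684 and 0.514 FPKM in treated libraries, within the range of the iECDC libraries (-0.11 ± 0.28, adjusted p 0.775), and turned to 0.08 without iECDC replicate 2.

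Tgfa went the other way from Hbegf and Ereg. It had 3.6, 2.82 and 2.94 FPKM in treated libraries, all above the 1.69 to 2.17 FPKM of iECDC (log2 fold change 0.68 ± 0.16, adjusted p 0.0154). Nrg1 had 1.13, 0.882 and 1.28 FPKM, also above every iECDC library (0.81 ± 0.19, adjusted p 0.0153). Both stayed higher in direction in every alternative, but the call of Tgfa was lost without SB431542 replicate 1 (adjusted p 0.0666), iECDC replicate 1 (0.0697) or iECDC replicate 2 (0.0554), and that of Nrg1 without SB431542 replicate 1 (0.0565), SB431542 replicate 3 (0.0649) or iECDC replicate 2 (0.0677).

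Both receptors were higher in treated libraries. Erbb2 had 14.8, 13.5 and 12.7 FPKM against 7.82 to 10.2 in iECDC, with no overlap, and was called in all 16 alternatives (log2 fold change 0.65 ± 0.13, adjusted p 0.00835). Egfr had 12.8, 7.93 and 12.3 FPKM against 7.07, 7.91 and 7.11. Replicate 2 lay at the upper edge of the iECDC libraries and the other treated libraries well above it. The call of Egfr (0.59 ± 0.18, adjusted p 0.04) was lost when any one library other than SB431542 replicate 2 was left out, with an adjusted p of 0.13, 0.0907 and 0.104 without iECDC replicates 1, 2 and 3 and of 0.14 and 0.13 without SB431542 replicates 1 and 3. Without SB431542 replicate 2 it was 0.78 ± 0.09 (adjusted p 0.000152).

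Treated replicate 2 did not depart from its group evenly over the family. On the log2 scale of depth-scaled counts, minus the iECDC mean, Hbegf stood at -1.54 in replicate 2 and at a mean of -3.40 in replicates 1 and 3, Ereg at -0.65 against -2.41, and Egfr at 0.12 against 0.77. Erbb2 stood at 0.64 against 0.65, and Tgfa at 0.52 against 0.72. Of the 7 members for which replicates 1 and 3 both lay at least 0.5 from the iECDC mean in the same direction, replicate 2 lay nearer to that mean for 6, and the same held for 89.2% of the 4733 such genes among all genes. What sets this library apart was not tested.

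Treated libraries were also set against pECDC, the primary cells from which the methods derive a treated clone. There 4 of the 8 tested members were called, and 34.8% of all 14015 genes tested, 17.9% as higher and 17% as lower. Tgfa, Nrg1 and Erbb2 were higher in treated libraries and Hbegf was lower. For 6 of the 8 the libraries did not overlap, against 51.5% of all genes. The same treated libraries enter this comparison and the previous one. Tgfa, at 1.31 to 1.66 FPKM in pECDC and 2.82 to 3.6 in treated libraries, was 2.11-fold higher (log2 fold change 1.08 ± 0.14, adjusted p 0.00207), and Erbb2, at 8.85 to 9.99 against 12.7 to 14.8 FPKM, was 1.46-fold higher (0.55 ± 0.09, adjusted p 0.00378). Both were called in every alternative. Nrg1, at 0.716 to 0.764 against 0.882 to 1.28 FPKM, was called (0.57 ± 0.16, adjusted p 0.0291), but not when any one library other than SB431542 replicate 2 was left out (adjusted p 0.0847 to 0.106).

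Hbegf was 3.54-fold lower than in pECDC (log2 fold change -1.82 ± 0.49, adjusted p 0.0267), and 6.88-fold lower without SB431542 replicate 2 (-2.78 ± 0.08, adjusted p 2.12e-15). Its call was lost when any one other library was left out, with an adjusted p of 0.0715 to 0.0819. Ereg lay below all pECDC libraries in every treated library without being called (-1.16 ± 0.46, adjusted p 0.0918), and without SB431542 replicate 2 it was called, at -2.01 ± 0.08 (adjusted p 9.81e-14). Areg behaved likewise, at -2.15 ± 0.73 (adjusted p 0.0575) and at -4.38 ± 0.36 without that library (adjusted p 5.75e-09). Without SB431542 replicate 2, 6 of the 8 members were called, against 64.1% of all genes tested. Egfr overlapped between treated and pECDC libraries (-0.23 ± 0.18, adjusted p 0.336). In replicates 1 and 3 its 12.8 and 12.3 FPKM lay next to the 12.5 to 13.4 FPKM of pECDC, and the log2 fold change without replicate 2 was -0.05 ± 0.05. Btc overlapped as well (-0.17 ± 0.22, adjusted p 0.579).

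**Figure D3:**
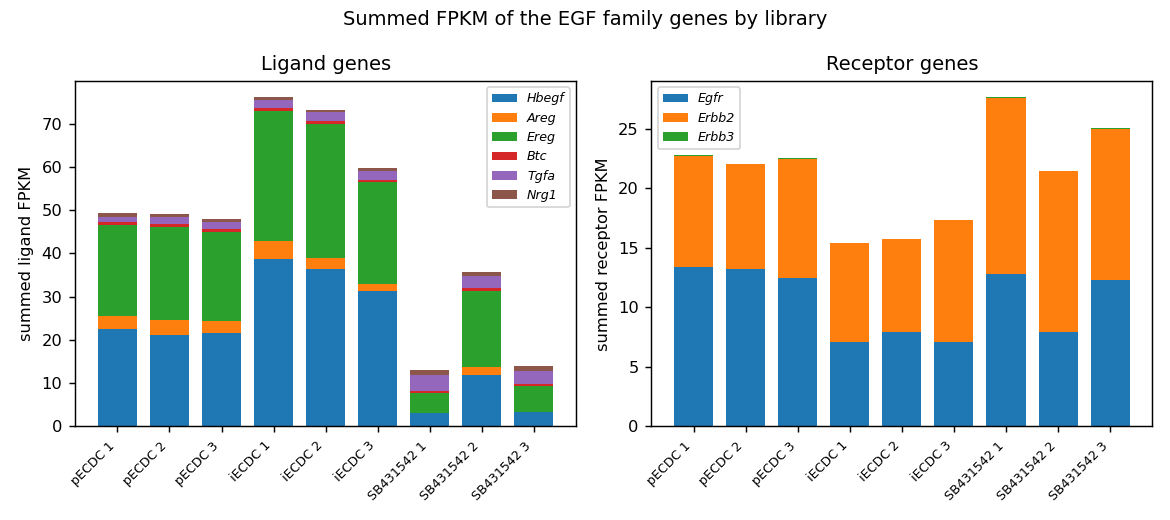
Summed FPKM of the 6 ligand genes (left) and the 3 receptor genes (right) in each library, as stacked bars from 0 with 1 colour a gene. Hbegf and Ereg make up most of every ligand bar, treated replicates 1 and 3 have the lowest sums, 13 and 14 FPKM, and Erbb3 is too low to be seen.

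Summed over the 6 ligands, pECDC libraries held 49.4, 49.1 and 48.1 FPKM, iECDC libraries 76, 73.3 and 59.8, and treated libraries 13, 35.8 and 14. The groups did not overlap. The receptors summed to 22.8, 22.1 and 22.5 FPKM in pECDC, to 15.4, 15.8 and 17.3 in iECDC and to 27.6, 21.5 and 25 in treated libraries. The ratio of ligand to receptor FPKM was thus 2.13 to 2.22 in pECDC, 3.45 to 4.93 in iECDC and 0.469 to 1.66 in treated libraries. Hbegf made up 43.2% to 45.9% of the ligand FPKM in pECDC, 49.7% to 52.4% in iECDC and 23.7%, 33.5% and 23.1% in treated libraries. The share of Tgfa was 2.22% to 3.62% in untreated libraries and 27.8%, 7.89% and 20.9% in treated ones. Hbegf stood at 13.1 to 23 times the FPKM of Tgfa in untreated libraries and at 0.854, 4.25 and 1.1 times in treated libraries. These sums and shares describe RNA per library, and no test was made on them.

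The rest of the family was scarcely detected. Of the other EGF family genes, Egf, which encodes epidermal growth factor, had 10 to 31 counts and 0.0556 to 0.124 FPKM, and was called only as lower in treated than in pECDC libraries (log2 fold change -0.80 ± 0.23, adjusted p 0.0327; the difference between comparisons was not tested). With SB431542 replicate 2 left out, 1 of the 2 other family genes tested was higher and 1 lower in treated than in pECDC libraries, beside 64.1% of all genes called. The higher one was Nrg4 (1.31, adjusted p 0.0459 in edgeR), on 9, 5 and 2 counts in pECDC and 11 and 10 in treated libraries. The lower one was Egf (-0.92, adjusted p 0.0233 in edgeR). Nrg4 had 2 to 14 counts, Nrg2 1 to 5 and Epgn, the epigen gene next to Ereg, 0 to 3. Nrg3 was at 0 in every library. Erbb4, the receptor that binds neuregulins as well as HB-EGF, had 0 counts in 6 libraries and at most 2 in the others, within the 3 counts that a count of 0 allows, so Egfr and Erbb2 were the only receptors of the family with more than 3 counts in every library.

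Several members overlap other genes, and the strand setting of the counting was not given in the sources used here, so reads of overlapping genes cannot be told apart where they were counted without strand. The antisense gene Gm19610 overlaps the start of Ereg and had 68, 60 and 55 counts in pECDC, 66, 58 and 47 in iECDC and 9, 61 and 19 in treated libraries, against 328 or more counts of Ereg in each. Mien1 overlaps the last bases of Erbb2 on the opposite strand and had 59 to 127 counts. Gm43917 at Tgfa, Gm26578 at Nrg1 and Egfros at Egfr had at most 7 counts in any library, and Gm22140 at Nrg1, Gm25048 at Erbb2 and Mir6917 at Erbb3 at most 1.

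For the members that passed a log2 fold change of 1 and were called in a comparison, the 3 protein-coding genes with the most similar pattern over the 9 libraries were sought among 10342 genes, by the root mean square difference of centred log2 counts scaled to library depth. Nearest to Hbegf were Gm45716 (0.129), Mmd (0.18) and Nmnat2 (0.187), against a median of 1.28 over all genes. Mmd had 34.8 to 36.7 FPKM in pECDC, 40.6 to 47 in iECDC and 4.54, 19.7 and 5.67 in treated libraries. Nearest to Ereg were Prl2c2 (0.154), a prolactin family gene with near-identical relatives whose counts may be split, Txnrd1 (0.17), the cytosolic thioredoxin reductase, and Ankrd1 (0.207), against a median of 0.928. Nearest to Tgfa were Paqr4 (0.123), Sun2 (0.136) and Phactr2 (0.14), against a median of 0.501. These are likenesses over 9 libraries in which the treated group and its replicate 2 carry most of the variation.

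Lists of genes around the receptors were counted next, and the share of all tested genes called, in either direction, is the background for each count. It was 16.4% between iECDC and pECDC and 31.7% without iECDC replicate 3. In treated against iECDC libraries it was 30%, 50.2% without SB431542 replicate 2 and 25.4% without iECDC replicate 3, and against pECDC it was 34.8%, or 64.1% without SB431542 replicate 2. No list was tested against these shares.

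Genes for proteins that cut or carry the ligands, or that inhibit this cutting, were counted in a list of 16, of which 15 were tested. Between iECDC and pECDC, 1 was higher and 4 were lower, with a median log2 fold change of -0.05 (3 and 6 without iECDC replicate 3). Rhbdl2, a rhomboid protease of the cell surface, was higher (1.39, adjusted p 0.00109). Timp3, the inhibitor of ADAM17, was the most lowered (-0.65, adjusted p 0.000332), followed by Rhbdf2, which escorts ADAM17 to the surface (-0.52, adjusted p 0.0183), and by Adam17 (-0.26, adjusted p 0.0409) and Adam10 (-0.22, adjusted p 0.0299). In treated against iECDC libraries none of the 15 was higher and 7 were lower, with a median of -0.18 (1 and 6 without iECDC replicate 3). The largest falls were those of Adam12 (-2.83, adjusted p 0.00695, and -3.75 without SB431542 replicate 2) and Rhbdl2 (-1.22, adjusted p 0.0105). Timp3 again fell, from 73.7 to 80.6 FPKM in iECDC to 31.5 to 37.1 in treated libraries (-1.17, adjusted p 0.000836), with no treated library apart. With SB431542 replicate 2 left out the counts were 4 higher and 6 lower, Adam17 among the higher (0.58, adjusted p 0.00108); Timp3 and Adam17 were named here after their values were seen. Against pECDC 2 were higher, Nrd1 (0.50) and Adam15 (0.42), and 5 lower, led by Adam12 (-2.98, and -3.91 without SB431542 replicate 2) and Timp3 (-1.82), and 6 were higher and 5 lower without SB431542 replicate 2.

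Of 20 genes that inhibit the receptors or turn them over, 19 were tested between iECDC and pECDC, and 2 were lower and none higher (median -0.06), but without iECDC replicate 3 the counts were 6 lower and 3 higher. The 2 were Grb10, an adaptor that binds receptor tyrosine kinases, from 102 to 120 counts in pECDC to 3 to 10 in iECDC (-3.72, adjusted p 4.7e-05), and Lrig2 (-0.36, adjusted p 0.0285). In treated against iECDC libraries 2 of 18 were higher and 3 lower, with a median of -0.03. Lrig2 (0.55) and the phosphatase gene Ptpn1 (0.45) were higher, and the Sprouty gene Spry4 (-0.80), Lrig3 (-0.74) and Lrig1 (-0.47), whose protein promotes the degradation of ERBB receptors, were lower. The 5 called of 18 stand beside 30% of all genes, and without SB431542 replicate 2, 5 were higher and 6 lower, beside 50.2%. Without iECDC replicate 3, 2 were higher and 4 lower, beside 25.4%. Against pECDC 1 of 19 was higher, Ptpn1 (0.52), and 6 were lower, led by Grb10 (-4.60, on 1, 8 and 2 counts in treated libraries) and Spry4 (-0.56). The counts there were 5 higher and 10 lower without SB431542 replicate 2.

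Among 35 adaptor, RAS-MAPK and PI3K genes, all of them tested, 3 were higher and 3 lower in iECDC than in pECDC (median -0.00), and 5 higher and 9 lower without iECDC replicate 3. Pik3cb (0.59), Hras (0.42) and Gab2 (0.41) were higher, and Pik3r1 (-0.64), Stat5a (-0.41) and Eps8 (-0.36), an EGFR kinase substrate, were lower. In treated against iECDC libraries 9 were higher and 5 lower, with a median of 0.00. Stat5a (1.18) and Eps8 (0.97) led the higher genes, and Pik3cb (-1.12) the lower. The counts were 11 and 9 without SB431542 replicate 2, and 10 and 3 without iECDC replicate 3. Against pECDC 13 were higher and 7 lower (16 and 12 without SB431542 replicate 2), with Stat5a (0.78) and Gab1 (0.66) leading the higher genes.

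Transcripts known to rise soon after receptor activation were counted in a list of 20 genes, all tested. They answer many other stimuli as well, TGF-β among them, and their change was not tied to the ligands by any test. In iECDC against pECDC 9 were higher and 1 lower, with a median of 0.25, and without iECDC replicate 3, 15 and 1, with a median of 0.30. Fosl1, a subunit of AP-1, went from 57.7, 58.9 and 52.7 FPKM in pECDC to 102, 102 and 98.1 in iECDC (0.82, adjusted p 7.62e-05), and the phosphatase gene Dusp5 followed (0.65, adjusted p 0.000591). The lower one was Dusp6, which encodes an ERK phosphatase (-0.94, adjusted p 0.000185). In treated against iECDC libraries none was higher and 7 were lower, with a median of -0.62: the largest falls were those of Fosb (-2.01, adjusted p 0.00389) and Plaur, the urokinase receptor (-1.84, adjusted p 0.00123). Without SB431542 replicate 2, 1 was higher and 14 were lower, with a median of -1.04. Fosl1 was one of those not called with all libraries, at 20.6, 76.5 and 21.9 FPKM in treated libraries (-1.34 ± 0.46, adjusted p 0.0578), and Etv5, at 6.48, 14.9 and 6.54 FPKM against 13.2 to 15 in iECDC, had its replicate 2 within the range of the untreated libraries. Both genes were named after their values were seen. Against pECDC 2 were higher, Jun (0.55) and Egr1 (0.50), and 6 lower, led by Dusp6 (-1.74) and Fosb (-1.63), and 3 were higher and 14 lower without SB431542 replicate 2.

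**Figure D4:**
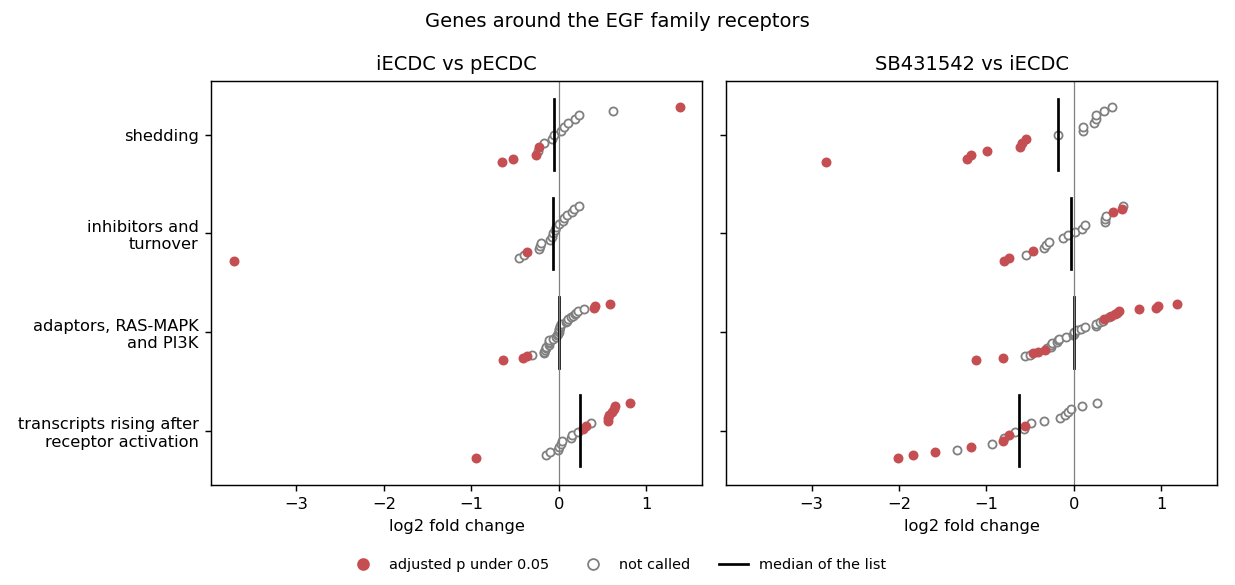
Log2 fold change of each tested gene in 4 lists around the receptors, for iECDC against pECDC (left) and treated against iECDC libraries (right). Red points had an adjusted p under 0.05 in edgeR, open points did not, and black bars are list medians, which for the transcripts that rise after receptor activation were 0.25 and -0.62.

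Genes known to respond to TGF-β were counted in the same libraries as a check of the inhibitor. In treated against iECDC libraries 6 of 11 tested genes were lower and 1 was higher, with a median of -1.78, and without SB431542 replicate 2, 7 were lower and 3 higher, with a median of -2.38. Ltbp2 fell most (-4.40, adjusted p 0.0133, with 1, 78 and 1 counts in treated libraries, so that without replicate 2 the treated group is within the 3 counts that a count of 0 allows), and Tgfbi was the gene that was higher (3.53, adjusted p 0.00405). Between iECDC and pECDC 3 were higher, Ctgf among them (0.44), and 3 lower, led by Tgfbi (-2.74) and Bhlhe40 (-0.63), and the median of 0.31 turned to -0.14 without iECDC replicate 3, with 4 higher and 5 lower. Against pECDC 6 of 11 were lower in treated libraries and none higher, led by Ltbp2 (-5.22), but without SB431542 replicate 2 the counts were 8 lower and 2 higher, Tgfbi (1.24, adjusted p 3.46e-07) among the higher. Markers of other cells moved too, mostly at low levels. Of the 11 epicardial and epithelial markers 5 were tested, and 3 were higher in treated libraries: Wt1 (0.107 to 0.396 FPKM), Upk3b (1.16 to 1.36) and Tcf21 (1.34 to 1.58) exceeded iECDC by 4.40, 3.45 and 1.47 on the log2 scale. The counts were 4 higher and 1 lower without SB431542 replicate 2, with Tjp1 (0.50) added to the higher and Krt19 (-0.37) the lower one. Beside these counts, 30% of all genes were called, and 50.2% without that library. Upk1b, also of the 11, was not tested against iECDC, with 8, 68 and 7 counts in treated and 19, 5 and 9 in iECDC libraries. Against pECDC without SB431542 replicate 2, 5 of 6 tested were higher and Upk1b was lower (-1.82, adjusted p 0.000302 in edgeR), beside 64.1% of all genes called. In treated against iECDC libraries Tnnt2, of 2 tested cardiomyocyte markers, was lower (-3.07, adjusted p 0.00378). Of 3 tested blood markers Lyz2 was lower there (-0.95, adjusted p 0.0284, but not called without iECDC replicate 3). Both were higher in iECDC than in pECDC (1.36 for Tnnt2 and 2.55 for Lyz2). In bulk RNA a smaller share of cells and less RNA per cell cannot be told apart, and the part of these markers in the changes of the EGF family was not tested.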

How the data were processed

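RNA-seq of 9 mouse libraries was analysed, 3 each of pECDC, iECDC and SB431542-treated cells, grouped by their labels. The authors deposited raw counts for each gene and FPKM values. The latter are the counts over gene length and 1 constant per library (1 gene was off by over 1%, in pECDC replicate 3). The submitters' processing notes name TopHat2 2.0.9, Bowtie2 2.0.6 and the build mm9, but the start and end of 53585 of the 54532 genes are those of GENCODE M21 on GRCm38, so coordinates are given as GRCm38; of the members only Hbegf differs. The counting program and strand setting are not given in the sources used here. Library kit and sequencer differ between the labels and the study's methods. The deposited fold changes, p-values and group means of the authors' comparisons were not used.

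Counts were tested in R 4.3.3 with edgeR 4.0.16 (quasi-likelihood test), TMM factors, the filter filterByExpr at a minimum count of 10 and a minimum total of 15, only the libraries of the 2 groups compared, and Benjamini-Hochberg adjustment over all genes tested, with a threshold of 0.05. Testing steps were first tested on simulated data with 200 changed genes. All 160 listed symbols, the 9 members among them, were found in the table. Total counts were 16568306 to 23951392 per library, and a count of 0 allows up to 3 counts, which covers counting error only. Alternatives were upper-quartile scaling, RLE factors, DESeq2 1.42.0, all 9 libraries in 1 fit, no filter, a filter of at least 10 counts in each library, the replicate number as a block, limma 3.58.1 on log2(FPKM + 1) or log2(FPKM + 0.1), and leaving out each library. Promoter windows are from RefSeq (GRCm38.p6); Hbegf, Ereg, Nrg1 and Erbb3 had no entry.

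Named were all members and the other family genes, genes overlapping members, the 3 genes nearest in pattern to members called with a log2 fold change of at least 1, and from each list the 2 called genes that rose most and the 2 that fell most, plus genes needed for a count of 5 or fewer. Some genes that this rule names are not reported here. The members, lists and tests were chosen with earlier results of these data known. Figures used matplotlib 3.10.9 in python 3.11.15, with pandas 2.3.3 and numpy 2.4.6.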

Additional observations from a re-analysis of the deposited data

How the results depend on the processing

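Over the alternatives, 303 of 366 values of single members kept their direction and their side of the threshold, 38 kept the direction but were no longer called, 21 became called and 4 turned, with none of the 4 called: in iECDC against pECDC Areg (-0.59 to 0.14 over the libraries left out, and 0.14 without iECDC replicate 3) and Btc (-0.25 to 0.14, with 0.10 without pECDC replicate 2 and 0.14 without iECDC replicate 3), and in treated against iECDC libraries Btc (-0.46 to 0.08, with 0.08 without iECDC replicate 2). With all 9 libraries in 1 fit, 1 member (Egfr) was called between iECDC and pECDC in place of 3, and 671 genes in place of 2258. Leaving out 1 library at a time, 2 to 4 members were called between iECDC and pECDC, 2 to 7 in treated against iECDC and 2 to 6 in treated against pECDC libraries, and over all genes 1036 to 4467, 1707 to 7001 and 2453 to 9188, with the highest count in each case without iECDC replicate 3 or SB431542 replicate 2. Leaving out both of these libraries, a choice made after seeing the data, 8951 genes and 7 members were called in treated against iECDC libraries. With upper-quartile scaling the calls there were 2319 higher and 1701 lower, against 2164 and 1897.

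Deviations of same-numbered libraries from their group means correlated at -0.0443 to 0.0256 between iECDC and pECDC, at -0.251 to 0.0283 between treated and iECDC and at -0.0585 to 0.0313 between treated and pECDC libraries. These values cannot show whether same-numbered libraries were prepared together. With the number as a replicate block, 1791, 3038 and 3886 genes were called in place of 2258, 4061 and 4881, and 3, 6 and 5 members in place of 3, 6 and 4. Under the block Areg passed in treated against iECDC libraries (-2.38, adjusted p 0.045 in edgeR) and Egfr did not (0.56, adjusted p 0.0668), and against pECDC Areg (adjusted p 0.0403) and Ereg (0.0375) passed and Nrg1 (0.0542) did not.

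Depth limits Erbb3, Erbb4 and the other low family genes, and the treated levels of Areg, which rest on 2 and 4 counts in replicates 1 and 3.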
